A study of Mus musculus with 12 samples.

Results

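The numbered zinc finger genes of the mouse, whose symbols are Zfp followed by a number, were followed in embryonic stem (ES) cells that had been differentiated with retinoic acid. Every gene that the array names Zfp with a number from 1 to 500 was taken, apart from Zfp42 and Zfp57, and each was read from its brightest probe. This gave 157 genes of the 21197 named on the array. The study set 3 samples of ES cells after 3 days in retinoic acid, a form of vitamin A that switches on nuclear retinoic acid receptors, against 3 samples of undifferentiated ES cells. RNA of each sample was labelled with 1 dye and hybridised to 2 technical arrays, 12 arrays in all, to compare transcript levels in the 2 states. The labels name no ES cell line, dose of retinoic acid or culture medium. They call the samples biological replicates without saying whether these were separate cultures, so each p-value reflects only how far these samples spread.

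Most numbered Zfp genes encode proteins with tandem C2H2 zinc fingers, short loops held by a zinc ion that read DNA base by base. Many also carry a KRAB domain, which recruits the corepressor Trim28 (Kap1) and through it the histone H3 lysine 9 methyltransferase Setdb1, and in ES cells this machinery silences endogenous retroviruses and guards imprinted genes. Related KRAB genes lie in clusters made by repeated duplication. The symbol is only a name, however, and it also covers RNA binding proteins, transcription factors of development and a few proteins of quite different classes.

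Signals are given as log2 of the quantile-normalized net intensity with 50 added, on which the fold change of a dim gene is understated. A gene was tested when its probe exceeded the negative control spots on 4 or more of the 6 arrays in 1 group or both. It was called higher or lower where limma gave an adjusted p under 0.05, with the adjustment over all 15328 genes tested. Median net intensities ran from 37.4 to 96.6 between arrays, and 53.8% to 85.0% of probes were above background. The number of arrays limits the precision. Pou5f1 (Oct4), which maintains pluripotency, had 8.59, 7.72 and 8.15 after retinoic acid, against 12.68, 11.97 and 13.98 in undifferentiated cells, and fell by 4.72 on the log2 scale (SE 0.48, adjusted p = 0.000285). Cyp26a1, the gene of a retinoic acid degrading enzyme, rose by 8.04 (SE 0.18, adjusted p = 1.18e-06). Of the ES cell markers 5 of 6 fell, and of the retinoic acid response markers 5 of 6 rose. Markers of other cell types also moved with the treatment. Of the feeder fibroblast markers, 4 of 7 rose and 1 fell, and their summed intensity was 3129 to 3668 after retinoic acid and 1157 to 1444 in undifferentiated cells. For the endoderm markers 3 of 6 rose, with sums of 4616 to 5411 after retinoic acid and 651 to 1554 in undifferentiated cells. For the trophoblast markers 3 of 6 rose, with sums of 46078 to 53765 after retinoic acid and 1200 to 3034 in undifferentiated cells. Krt8 and Krt18, keratins that simple epithelia share, made up most of these sums, which without them were 218 to 319 after retinoic acid and 169 to 219 in undifferentiated cells. For the mesoderm markers 3 of 6 rose, with sums of 1708 to 1884 after retinoic acid and 161 to 173 in undifferentiated cells, and 1 of 6 neural markers rose and 1 fell, with sums of 3257 to 3543 after retinoic acid and 2577 to 3519 in undifferentiated cells. The defining markers Elf5 (trophoblast), Mixl1 and Mesp1 (mesoderm) did not pass the detection filter. The part of a change in cell types in the Zfp results was not tested, and fewer cells of a type and less RNA per cell cannot be told apart in such samples.

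Of the 157 Zfp genes, 149 passed the detection filter, and as many rose as fell. After retinoic acid 19 genes (12.8%) were higher, beside 18.7% of all genes tested, and 19 (12.8%) were lower, beside 13.6% of all genes tested. In either direction 38 genes (25.5%) were called, beside 32.3% of all genes. The median difference was -0.108 for the Zfp genes and 0.0035 for all genes. The median size of the difference, regardless of sign, was 0.419 for the Zfp genes and 0.396 for all genes. A difference of at least 2-fold was called in 9 higher and 8 lower Zfp genes, which together are 11.4% of those tested, beside 16.6% of all genes. The 3 samples of the groups did not overlap for 75 Zfp genes (50.3%), beside 46.6% of all genes, and 37 of these 75 were not called. The split depended on the scaling, with 16 higher and 24 lower Zfp genes under scaling of the arrays to their 75th percentiles (26.8% called, beside 33.2% of all genes). It also depended on single samples. Lower calls numbered 30, and higher calls 21, without undifferentiated replicate 2 (34.2% of Zfp genes called, beside 34.3% of all genes). There were 10 lower calls without undifferentiated replicate 1 (15.4% called in either direction, beside 24.2% of all genes). Without retinoic acid replicate 1 there were 12 higher and 11 lower (15.4%, beside 22.3% of all genes). Without retinoic acid replicate 3 there were 11 higher and 9 lower (13.4%, beside 21.1% of all genes). The share called among all genes thus moved with the left-out sample as well.

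**Figure D1:**
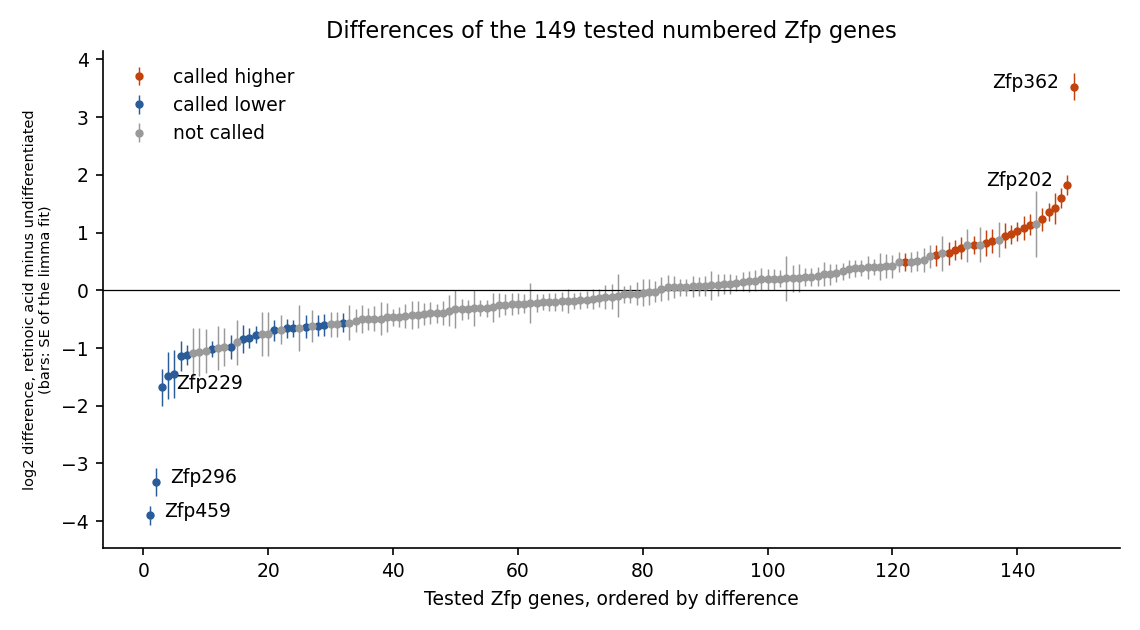
Log2 difference (retinoic acid minus undifferentiated) of each of the 149 tested Zfp genes on the y axis, ordered by its size on the x axis, with bars for the standard error of the limma fit and colours for called higher, called lower and not called. Zfp459 (-3.90) and Zfp296 (-3.32) at the low end and Zfp362 (3.53) at the high end stand off from the others, which lie between -1.68 and 1.83.

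Only 7 of the 149 genes passed the filter through 1 group alone, 6 of them through the retinoic acid arrays and Zfp300 through the undifferentiated arrays. Zfp202, Zfp467 and Zfp9 are the called ones among them, so their sizes rest on undifferentiated signals close to background. The other 3 that passed through retinoic acid, Zfp112 (0.05), Zfp324 (0.41) and Zfp398 (0.23), were not called, and neither was Zfp300 (-0.50). A set of 133 genes was above background on all 12 arrays. The 8 genes that were not tested were Zfp59, Zfp92, Zfp109, Zfp174, Zfp180, Zfp316, Zfp458 and Zfp474, and of these Zfp474 was above background on 0 of 12 arrays.

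The strongest falls, those of Zfp459 and Zfp296, were of genes placed on the list of genes linked to ES cells. That list was drawn up with earlier results of these data known, so its counts are only a description of its genes. Of the 7 tested genes on this list, 4 fell and 0 rose, where 13.6% of all genes fell, with a median difference of -0.60 beside 0.0035 for all genes. Of the 4 calls, those of Zfp281 and Zfp143 depended on the processing. Zfp459 encodes a zinc finger protein of a cluster of related genes, and Zfp296 a protein that is expressed in ES cells and binds the reprogramming factor Klf4. The 250 bases before their annotated starts are printed here because these are the largest falls of the family, together with those of Zfp229, which follows them in size. The sequences are from RefSeq on GRCm38.p6 and read 5′ to 3′ along the gene's strand, and capitals mark matches to motifs that are described further on. Zfp459 lies at chr13:67421419-67421668 on the minus strand, Zfp296 at chr7:19577037-19577286 on the plus strand and Zfp229 at chr17:21733474-21733723 on the plus strand.
Zfp459: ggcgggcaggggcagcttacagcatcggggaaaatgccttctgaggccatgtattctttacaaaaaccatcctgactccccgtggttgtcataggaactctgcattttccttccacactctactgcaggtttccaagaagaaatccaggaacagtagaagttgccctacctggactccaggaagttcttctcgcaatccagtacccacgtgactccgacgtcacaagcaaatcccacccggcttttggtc
Zfp296: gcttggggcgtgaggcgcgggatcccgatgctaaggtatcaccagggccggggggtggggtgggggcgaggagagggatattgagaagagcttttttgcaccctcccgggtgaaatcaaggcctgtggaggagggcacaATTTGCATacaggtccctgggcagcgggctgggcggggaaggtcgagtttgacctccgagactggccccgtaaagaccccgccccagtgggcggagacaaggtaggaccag
Zfp229: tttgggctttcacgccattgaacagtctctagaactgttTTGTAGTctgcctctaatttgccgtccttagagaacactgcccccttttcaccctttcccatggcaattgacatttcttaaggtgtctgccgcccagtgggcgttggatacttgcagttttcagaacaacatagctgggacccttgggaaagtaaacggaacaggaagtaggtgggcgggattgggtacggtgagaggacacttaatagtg

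Zfp459 had 6.55, 6.47 and 6.47 in the 3 retinoic acid samples, against 10.34, 10.17 and 10.67 in the 3 undifferentiated samples. The groups were far apart, and the spread was small in both. It fell by 3.90 on the log2 scale (SE 0.17, adjusted p = 1.07e-05), and was 14.9-fold lower. With 10 or 1 added in place of 50 the difference of Zfp459 was -4.70 or -4.98, so its size depends on the added constant. Zfp296 had 8.06, 8.43 and 8.08 after retinoic acid, against 11.56, 11.90 and 11.06 in undifferentiated cells. It fell by 3.32 (SE 0.24, adjusted p = 5.33e-05), which is 9.96-fold, and its second probe differed by -3.46. Both genes stayed above background on all 6 retinoic acid arrays, and both were called under each of the 22 alternatives that tested them. Zfp459 has 1 probe, which the alternative on second brightest probes reused.

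Smaller falls were seen for Zfp281 and Zfp143. Zfp281, a factor that binds GC-rich promoters in ES cells, had 11.64, 11.35 and 11.43 after retinoic acid, against 12.46, 11.95 and 11.90 in undifferentiated cells (difference -0.63 ± 0.20, SE, adjusted p = 0.0428). Zfp143, also known as Staf, which binds the promoters of many housekeeping and small RNA genes, had 9.15, 9.69 and 9.25 after retinoic acid, against 10.06, 10.01 and 9.82 in undifferentiated cells (difference -0.60 ± 0.19, SE, adjusted p = 0.0432). The groups of both genes lay close to each other without overlap. Each call was lost under 10 of the 22 alternatives, in both cases also when replicate 1 of either group or retinoic acid replicate 3 was left out, for Zfp281 without retinoic acid replicate 2 and for Zfp143 without undifferentiated replicate 2.

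The remaining 3 ES cell linked genes did not pass the test. Zfp462, which is needed to hold ES cells in the pluripotent state, differed by -0.53 (adjusted p = 0.074), and its groups did not overlap. It was called lower under 75th percentile scaling (-0.74, adjusted p = 0.0149) and median scaling (-0.71, adjusted p = 0.0215). Zfp352, known for its transcription in the early cleavage embryo, differed by 0.64 (adjusted p = 0.159), and Zfp217, whose human counterpart is an oncogene, by 0.05.

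Other strong falls were those of genes with less known roles. Zfp229 had 8.00, 8.52 and 7.53 after retinoic acid, against 10, 9.11 and 9.99 in undifferentiated cells, and fell by 1.68 (SE 0.32, adjusted p = 0.0058). Zfp1 had 8.76, 8.77 and 8.74 after retinoic acid, against 9.98, 9.55 and 10.09 in undifferentiated cells, and fell by 1.12 (SE 0.18, adjusted p = 0.00251). Zfp1 thus varied little among the treated samples, whereas the undifferentiated samples of both genes were lowest in replicate 2. Zfp367, whose human counterpart was described as an activator of globin genes in erythroid cells, had 8.92, 9.39 and 8.49 after retinoic acid, against 9.78, 10.11 and 10.32 in undifferentiated cells, and fell by 1.13 (SE 0.26, adjusted p = 0.0117). All 3 were called under each alternative that tested them at an adjusted p under 0.05. Zfp229 and Zfp1 have 1 probe each, which the alternative on second brightest probes reused. At the stricter threshold of 0.01 Zfp367 was not called. Zfp74 (-1.48) and Zfp97 (-1.45) also fell, but both calls were lost when replicate 1 or 3 of either group was left out, and that of Zfp74 also when retinoic acid replicate 2 was.

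The 12 largest falls, from -3.90 to -0.77, had adjusted p from 1.07e-05 to 0.0298. Besides those named, they were Zfp259 (-1.01), Zfp7 (-0.98), Zfp473 (-0.84), Zfp277 (-0.83) and Zfp78 (-0.77). Zfp277 encodes a protein that interacts with the Polycomb protein Bmi1. Zfp78 had 6.40, 6.73 and 6.45 after retinoic acid, against 7.25, 7.34 and 7.30 in undifferentiated cells, and was above background on 5 of 6 retinoic acid arrays. The remaining lower genes were Zfp472 (-0.69), Zfp263 and Zfp418 (both -0.66), Zfp317 (-0.61) and Zfp420 (-0.56), besides Zfp281 and Zfp143. Each of these calls was lost in some alternatives, 11 for Zfp317, 7 for Zfp420, 5 for Zfp472, 3 for Zfp263 and 2 for Zfp418. Retinoic acid replicate 3 was among the samples whose removal ended each of these 5 calls, and that of Zfp317 was lost when any 1 sample other than undifferentiated replicate 2 was left out.

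The largest rise was that of Zfp362, a C2H2 zinc finger gene. It had 11.64, 11.62 and 11.97 after retinoic acid, against 7.86, 8.64 and 8.13 in undifferentiated cells, and rose by 3.53 (SE 0.23, adjusted p = 3.66e-05), or 11.6-fold. All treated samples were well above all undifferentiated ones. A second, dimmer probe of Zfp362 also rose, but by 0.73, with 3 of 6 undifferentiated arrays above background. The brightest probe's call held under each alternative fitted on it, and the size of the rise differs between the probes.

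The rises that followed were smaller on this scale. Zfp202, whose human counterpart represses genes of lipid metabolism, had 7.69, 8.08 and 7.73 after retinoic acid, against 5.93, 6.10 and 5.97 in undifferentiated cells (difference 1.83 ± 0.17, SE, adjusted p = 0.000161). Only 2 of 6 undifferentiated arrays were above background for it, so the size is approximate, and the difference was 2.98 with 10 and 3.61 with 1 added in place of 50. Zfp319 had 9.75, 9.50 and 9.70 after retinoic acid, against 8.07, 8.28 and 7.82 in undifferentiated cells (difference 1.60 ± 0.17, SE, adjusted p = 0.000388). Neither gene had overlapping groups, and both were called under each alternative that tested them. Each has 1 probe, which the alternative on second brightest probes reused. Their upstream sequences, from the same source, are printed to set strong rises beside the falls. Zfp202 lies at chr9:40192066-40192315 on the plus strand and Zfp319 at chr8:95331812-95332061 on the minus strand.
Zfp202: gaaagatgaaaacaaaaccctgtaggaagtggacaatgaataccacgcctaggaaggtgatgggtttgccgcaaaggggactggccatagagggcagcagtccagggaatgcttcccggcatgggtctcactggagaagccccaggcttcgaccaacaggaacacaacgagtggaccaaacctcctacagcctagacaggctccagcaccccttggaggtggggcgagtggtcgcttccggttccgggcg
Zfp319: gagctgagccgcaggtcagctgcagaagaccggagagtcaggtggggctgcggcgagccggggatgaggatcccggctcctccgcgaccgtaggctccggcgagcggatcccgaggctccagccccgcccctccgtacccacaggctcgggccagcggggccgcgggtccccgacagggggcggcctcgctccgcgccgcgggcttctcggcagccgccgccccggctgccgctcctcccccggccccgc

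Zfp422 is known as Krox-26 and is expressed in developing teeth. It had 11.37, 11.15 and 11.20 after retinoic acid, against 9.80, 9.94 and 9.91 in undifferentiated cells (difference 1.36 ± 0.15, SE, adjusted p = 0.000359), and its second probe gave 1.21. Zfp282, whose human counterpart represses transcription from a viral long terminal repeat, had 8.78, 8.54 and 8.80 after retinoic acid, against 7.54, 7.68 and 6.65 in undifferentiated cells (difference 1.42 ± 0.27, SE, adjusted p = 0.00594). The lowest undifferentiated value of Zfp282, in replicate 3, set much of its spread, and without any 1 sample the difference lay between 1.10 and 1.61. Zfp287 (1.23), Zfp90 (1.14), Zfp251 (1.08), Zfp467 (1.02), Zfp426 (0.97), Zfp334 (0.95) and Zfp275 (0.86) complete the 12 largest rises, which had adjusted p from 3.66e-05 to 0.0155. Of these, the call of Zfp334 was lost without retinoic acid replicate 3 and that of Zfp275 without retinoic acid replicate 1 or 3. The other higher genes were Zfp46 (0.82), Zfp30 (0.79), Zfp12 (0.74), Zfp410 (0.70), Zfp326 (0.64), Zfp9 (0.61) and Zfp286 (0.49). Zfp30 was called under each alternative that tested it, whereas the calls of the others were lost under 3 alternatives for Zfp410, 5 for Zfp12, 6 for Zfp46, 9 for Zfp9, 12 for Zfp326 and 14 for Zfp286. The fit without retinoic acid replicate 3 was among them for each of these 6 genes, and so were those without replicate 1 of either group.

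**Figure D2:**
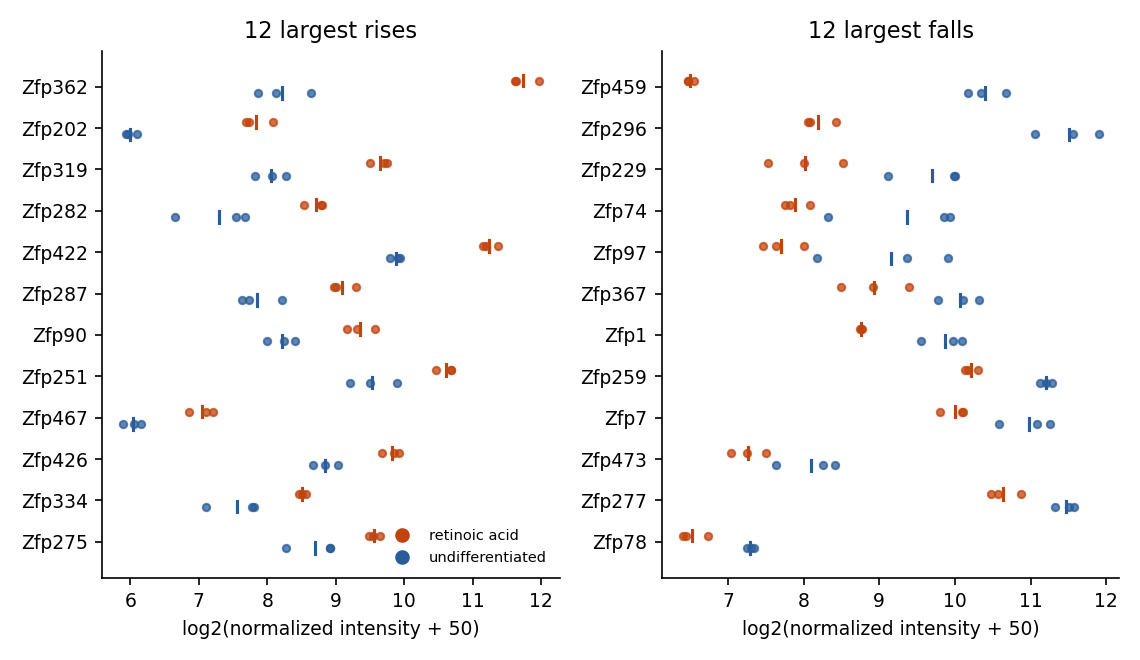
Log2(normalized intensity + 50) on the x axis in each of the 3 retinoic acid samples (upper points of a row) and the 3 undifferentiated samples (lower points) for the 12 largest rises (left) and the 12 largest falls (right), with a vertical bar at each group's mean. No gene shown has overlapping groups; Zfp74 and Zfp97 have 1 undifferentiated sample (8.32 and 8.18) close to the retinoic acid values.

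Of the 10 tested genes with known roles in development, 1 rose and 0 fell, where 18.7% of all genes rose and 13.6% fell. Zfp467, which favours fat over bone cell formation, had 7.10, 6.85 and 7.20 after retinoic acid, against 6.16, 6.05 and 5.89 in undifferentiated cells (difference 1.02 ± 0.16, SE, adjusted p = 0.00262), and was above background on 3 of 6 undifferentiated arrays. Zfp423, a partner of BMP-activated Smad proteins and of Ebf factors that acts in brain and fat development, had 9.76, 9.17 and 9.78 after retinoic acid, against 8.97, 8.08 and 9.02 in undifferentiated cells. Its groups did not overlap, and the difference of 0.88 (SE 0.30) had an adjusted p of 0.0544. It was called without retinoic acid replicate 2 (1.08, adjusted p = 0.0409) or without undifferentiated replicate 3 (1.04, adjusted p = 0.0471).

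Zfp358, the gene of another C2H2 protein, stood out for its spread. It had 10.05, 7.79 and 10.09 after retinoic acid, against 8.40, 7.80 and 8.29 in undifferentiated cells. Retinoic acid replicate 2 was thus at the level of the lowest undifferentiated sample while the other 2 were above all of them. The difference was 1.15 ± 0.58 (SE, adjusted p = 0.171) with all samples and 1.91 (adjusted p = 0.00153) without retinoic acid replicate 2. The other 7 genes of this list differed by -0.33 to 0.51. They include Zfp260 (0.51), a cardiac transcription factor, and Zfp148 (0.38), also known as ZBP-89. Also among them are Zfp238 (0.28), now Zbtb18, a repressor that acts in neuronal development, and Zfp335 (-0.29), which is needed in neural progenitors.

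Among 7 tested genes whose proteins bind or process RNA, 1 rose and 1 fell, a share of 28.6% beside 32.3% of all genes. Zfp473, a component of the machinery that cuts the 3′ ends of histone transcripts, had 7.04, 7.50 and 7.25 after retinoic acid, against 8.26, 8.42 and 7.63 in undifferentiated cells, a difference of -0.84 ± 0.24 (SE, adjusted p = 0.0298). That call was lost when replicate 1 of either group, undifferentiated replicate 2 or retinoic acid replicate 3 was left out. Zfp326, which links messenger ribonucleoprotein particles to RNA polymerase II, rose by 0.64 (adjusted p = 0.0404), a call that was lost under 12 of the 22 alternatives, among them both other scalings and each left-out sample except undifferentiated replicate 2. Zfp36, or tristetraprolin, which destabilises AU-rich transcripts, differed by -0.35 (adjusted p = 0.362), and Zfp207, also known as BuGZ, by 0.30 (adjusted p = 0.18) with groups that did not overlap. Zfp346, which binds double-stranded RNA, differed by 0.59 (adjusted p = 0.0571), Zfp318 by 0.39 and Zfp106 by -0.68 (adjusted p = 0.0696).

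Of the 4 genes linked to imprints or heterochromatin, 1 was called, beside 32.3% of all genes. Zfp410, a transcription factor known for its direct activation of the remodeller gene Chd4, had 10.69, 10.58 and 10.71 after retinoic acid, against 9.71, 9.96 and 10.21 in undifferentiated cells. It rose by 0.70 (SE 0.17, adjusted p = 0.0167), and the call was lost when replicate 1 of either group or retinoic acid replicate 3 was left out. Chd4 itself differed by 0.36 and was not called. Zfp445, a guardian of imprints in mouse and human, differed by -0.18 (adjusted p = 0.58), Zfp397, which locates to centromeres, by 0.42, and Zfp451, a SUMO ligase, by -0.45. For Zfp451 the probes had opposite signs, which is taken up with the other probes.

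A further 3 tested genes carry the Zfp symbol but belong to other protein classes. Zfp259, now named Zpr1, encodes a protein that binds the EGF receptor and the survival of motor neuron protein. It had 10.17, 10.14 and 10.31 after retinoic acid, against 11.29, 11.21 and 11.13 in undifferentiated cells, and fell by 1.01 (SE 0.14, adjusted p = 0.00146), a call that held under each alternative that tested it. Zfp185, which encodes a LIM domain protein of the actin cytoskeleton, differed by 0.79 (adjusted p = 0.0803), and Zfp330, a nucleolar protein, by -0.59 (adjusted p = 0.0783). The 118 tested genes outside all these lists held 16 higher and 13 lower calls (24.6% called). For comparison, the array also names 156 genes Zfp with a number above 500, of which 146 were tested, 20 were higher and 23 were lower (29.5% called). Whether these shares differ from those of the lower-numbered genes was not tested.

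The genes of proteins that KRAB zinc finger proteins work with were called at a share near that of all genes. Of 29 tested genes for Trim28 and its partners, 5 rose and 5 fell (34.5% called, beside 32.3% of all genes). Trim28 had 14.47, 14.15 and 14.75 after retinoic acid, against 14.97, 14.79 and 14.92 in undifferentiated cells, a difference of -0.44 ± 0.19 (SE, adjusted p = 0.112) with groups that did not overlap. Its highest net intensity was 42368, where the brightest probes of the arrays had 42952 to 49949. The part of this nearness to the top in its difference was not tested. Trim28 was called lower under 75th percentile scaling (-0.91, adjusted p = 0.00779) and median scaling (-0.87, adjusted p = 0.0103). Setdb1 had 9.76, 9.10 and 9.49 after retinoic acid, against 10.25, 9.98 and 10.69 in undifferentiated cells, and fell by 0.86 (SE 0.24, adjusted p = 0.0299). The other falls were those of Smarcad1 (-1.14), a remodeller that assists silencing of retroviruses, Hdac2 (-0.83), a histone deacetylase, Chaf1b (-0.71), a subunit of the chromatin assembly factor, and Morc3 (-0.69). The rises were those of Chd3 (1.14), a remodeller of the NuRD complex, Cbx5 (0.83), which encodes the heterochromatin protein HP1 alpha, Mta1 (0.69) and Rbbp7 (0.66), both NuRD subunits, and Daxx (0.52), a chaperone of histone H3.3. Of these rises that of Chd3 was called under both other scalings. Under 75th percentile and median scaling Cbx5 differed by 0.51 and 0.54, Mta1 by 0.33 and 0.36, Rbbp7 by 0.24 and 0.28 and Daxx by 0.15 and 0.19, and none of these 4 was called. Of the falls, Hdac2 and Chaf1b had adjusted p of 0.0447 and 0.0495 in the limma fit. With 1 added before log2 they had 0.0622 and 0.0698, with 10 added 0.0537 and 0.0612, and neither was called. Chaf1b was also not called under median scaling (-0.83, adjusted p = 0.0576). The falls of Setdb1, Smarcad1 and Morc3 were called under both other scalings and with 1 or 10 added. The counts moved with the processing, with 1 higher and 9 lower under 75th percentile scaling and 1 higher and 2 lower without undifferentiated replicate 1. They were 2 and 2 without retinoic acid replicate 1 or 3, 3 and 3 without undifferentiated replicate 3, and 2 lower without retinoic acid replicate 2. With 1 sample left out, the share called among all genes ranged from 21.1% to 34.3%.

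**Figure D3:**
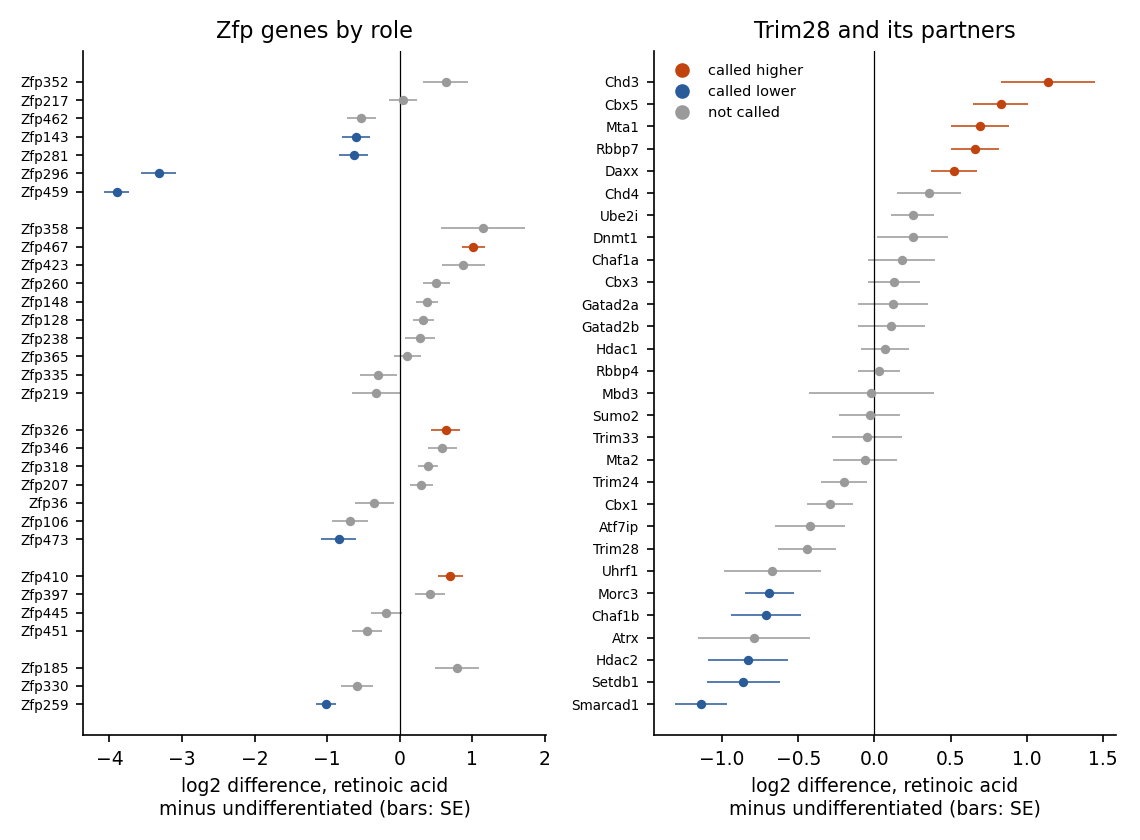
Log2 difference (retinoic acid minus undifferentiated, x axis) with its standard error for the tested Zfp genes of the role lists (left; from top to bottom ES cell linked, development, RNA, imprint or heterochromatin, other protein class) and for Trim28 and its partners (right), coloured by the call. Zfp296 and Zfp459 lie beyond -3, and all Trim28 partners lie between -1.14 and 1.14.

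A set of Zfp genes set undifferentiated replicate 2 apart from the other 2 undifferentiated samples. The arrays of this sample had the lowest background limits, 8.50 and 9.24, beside 12.6 or more on the others. They also had the most probes above background, 80% and 85%, beside at most 68%. The part of these array properties in the pattern was not tested. In 13 of the 149 genes (8.72%) this sample was at least 1 below the mean of undifferentiated replicates 1 and 3 on the log2 scale, beside 2.28% of all genes, and in 0 Zfp genes it was at least 1 above. Among the Zfp genes numbered above 500 it was so in 22 of 146 (15.1%). For 12 of the 13 genes the sample lay within 0.5 of the retinoic acid mean, and for 11 it was at or below the highest retinoic acid value. Zfp248 had 7.25, 7.29 and 7.16 after retinoic acid, against 9.04, 7.22 and 8.71 in undifferentiated cells. Zfp345 had 10.05, 10.79 and 10.23 after retinoic acid, against 11.72, 10.48 and 12.09 in undifferentiated cells. In both genes undifferentiated replicate 2 fell within the range of the treated samples while the other 2 undifferentiated samples were above it.

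Both technical arrays of the sample showed this. On array 1 the 13 genes were 1.01 to 1.59 below the mean of undifferentiated replicates 1 and 3 and on array 2, the one whose header names the other array, 1.03 to 1.71 below it. These genes had 10 further tested probes, all of them lower in undifferentiated replicate 2, 1 of them by at least 1. Besides Zfp248 and Zfp345 the genes were Zfp51, Zfp52, Zfp53, Zfp58, Zfp72, Zfp74, Zfp97, Zfp125, Zfp273, Zfp395 and Zfp442. Zfp51, Zfp53 and Zfp52 are neighbours in the genome, as are Zfp442 and Zfp345. Probes for such related neighbours may detect each other's transcripts, which was not tested.

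With all samples Zfp74 and Zfp97 were called lower and the other 11 were not called. The 13 genes were chosen for a low value in undifferentiated replicate 2. Leaving that sample out makes their differences more negative by construction, so the calls without it are no independent support. Without undifferentiated replicate 2, 11 of the 13 were called, among them Zfp248 (-1.64, adjusted p = 0.000716), Zfp345 (-1.55, adjusted p = 0.00485), Zfp53 (-1.52, adjusted p = 0.00206) and Zfp273 (-1.47, adjusted p = 0.00154). Zfp125 (-0.56) and Zfp395 (-0.13) were not called. Over all Zfp genes 51 were called without this sample (34.2%, beside 34.3% of all genes), 34 of them shared with the 38 called from all samples. The gene Atrx, a chromatin remodeller on the list of Trim28 partners, showed the same order of samples, with 7.08, 7.57 and 7.18 after retinoic acid, against 8.45, 7.15 and 8.60 in undifferentiated cells. No other of the 29 genes on that list was at least 1 lower in undifferentiated replicate 2 than the mean of replicates 1 and 3. Among the undifferentiated samples the ES cell markers Pou5f1 (11.97), Sox2 (12.57) and Tdgf1 (10.71) were also lowest in replicate 2. Nr0b1 (13.49) was highest in it, and Esrrb (13.61) and Dppa5a (15.38) lay between the other samples. The part of these markers in the pattern was not tested.

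**Figure D4:**
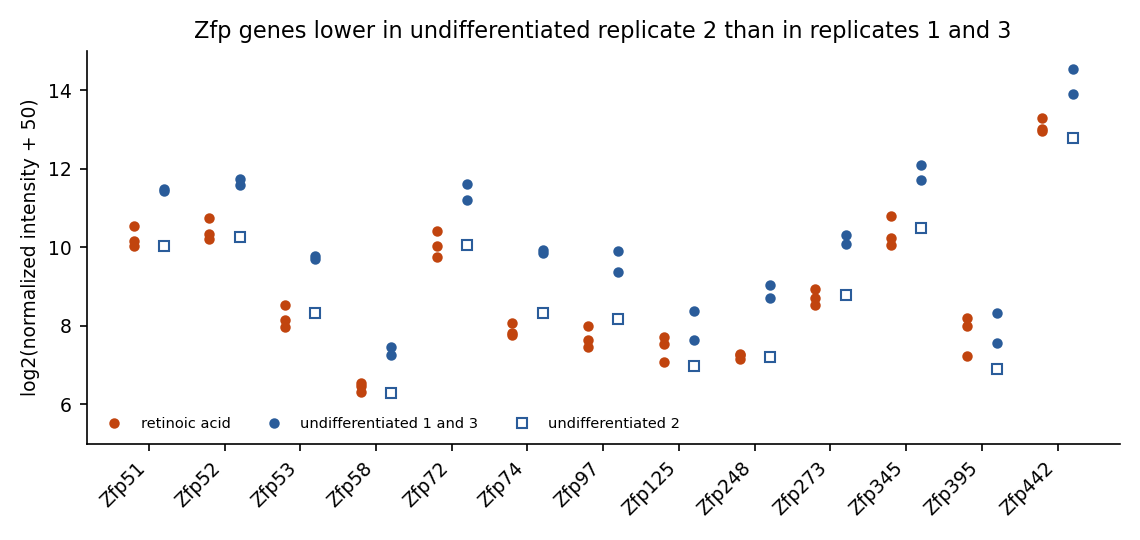
Log2(normalized intensity + 50) on the y axis of the 13 Zfp genes that were at least 1 lower in undifferentiated replicate 2 than the mean of replicates 1 and 3, with filled points for the 3 retinoic acid samples (left of each pair) and for undifferentiated replicates 1 and 3 (right) and an open square for undifferentiated replicate 2. For 11 of the 13 genes the square is at or below the highest retinoic acid point.

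Retinoic acid replicate 2 was the other sample with Zfp genes at least 1 below the rest of its group, in 3 genes (2.01%, beside 2.59% of all genes). These were Zfp358, Zfp219 (8.86 in that sample, a deviation of -1.19) and Zfp428. Zfp428 had 11.22, 9.88 and 10.80 after retinoic acid, against 11.84, 11.61 and 11.37 in undifferentiated cells, a difference of -0.98 (adjusted p = 0.0557) with groups that did not overlap. Undifferentiated replicate 3 was at least 1 above the mean of the others in 5 genes (3.36%, beside 2.56% of all genes). These were Zfp81, Zfp97, Zfp125, Zfp395 and Zfp442. All but Zfp81 belong to the genes that were low in undifferentiated replicate 2, and that low value is part of the mean used here.

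The array held 317 probes for the 157 Zfp genes, 1 each for 64 genes and several for 93. Calls on single probes are from a separate fit over all tested probes. In it, of the 74 genes with more than 1 tested probe, 5 had all tested probes called the same way, 17 had some called and others not, 52 had none called and 0 had probes called in opposite directions. Zfp143, Zfp286 and Zfp326 are among the 52, with adjusted p of 0.0532, 0.0581 and 0.0501 for their brightest probes in this limma fit, though the fit over genes called them. The sign of another probe matched that of the brightest probe for 84 of 113 probes. The brightest and second brightest probes had different signs in 16 of these 74 genes, with neither probe called in 14 of them. Zfp386 was not called from its brightest probe, with means of 7.76 after retinoic acid and 7.69 in undifferentiated cells, but rose on 2 others, by 1.43 and 0.90 (adjusted p = 0.00234 and 0.0143 in the fit over all probes). Zfp451 differed by -0.45 on its brightest probe and rose by 0.77 on the second (adjusted p = 0.0184). Zfp84 differed by 0.19 on its brightest probe, and fell on the second (-0.84, adjusted p = 0.0124).

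Other genes had a call on some of their probes alone. Zfp330 fell on its second probe (-0.98, adjusted p = 0.00216) and Zfp106 on 1 of its dimmer probes (-1.22, adjusted p = 0.00378), each with a like sign on the brightest. Zfp26, with 8 probes, differed by 0.11 on the brightest and fell on 1 dimmer probe (-0.75, adjusted p = 0.0177). For Zfp426 the rise of 0.97 on the brightest probe stood beside 0.17 on the second, which was not called. Zfp7 fell on 3 of its 5 tested probes, and the other 2 had the same sign. The transcript forms that each probe detects are not known from the files.

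**Figure D5:**
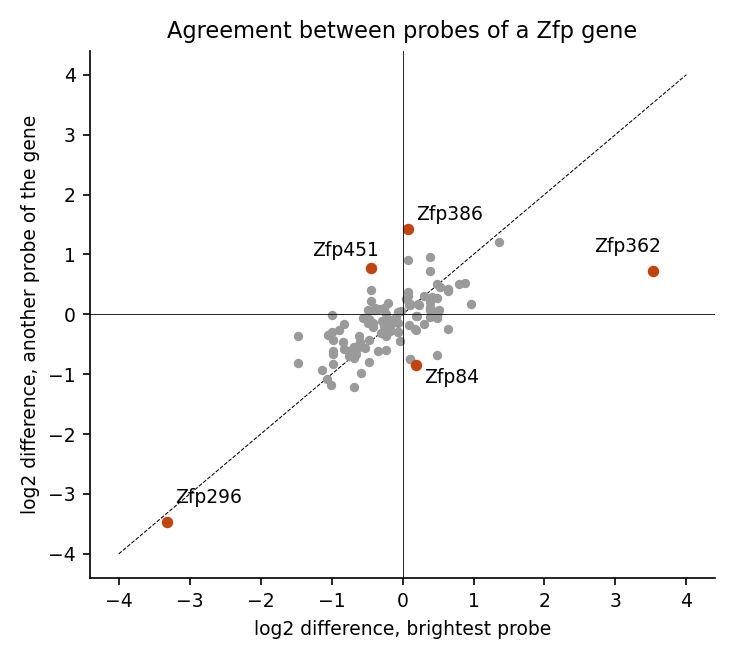
Log2 difference (retinoic acid minus undifferentiated) of the brightest probe of a Zfp gene on the x axis and of each other tested probe of that gene on the y axis, for 113 probes of 74 genes, with a dashed line where both are equal. Zfp296 lies near the line (-3.32 and -3.46), whereas Zfp362 (3.53 and 0.73) and Zfp386 (0.07 and 1.43) lie far from it.

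Of the Zfp genes, 155 were placed in the RefSeq gene table, where 39 pairs were adjacent, 33 of them with both members tested. In 2 of these 33 pairs both were called, in 10 pairs 1 was and in 21 none was, with 25.5% of single Zfp genes called. Zfp287 (1.23) and Zfp286 (0.49) both rose, whereas Zfp251 (1.08) rose and its neighbour Zfp7 (-0.98) fell.

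The upstream sequences of 127 of the Zfp genes were searched for 3 short motifs on both strands, in 161 windows of 250 bases that end at an annotated start. The octamer ATTTGCAT, which POU factors such as Pou5f1 bind, was found in 6 Zfp windows (3.73%), beside 1.6% of all 32851 windows of this length in the table. In the sequence of Zfp296 printed above it begins 111 bases before the start. The others with it were Zfp263, which fell, and Zfp120, Zfp207, Zfp345 and Zfp428, which were not called.

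The element ACTACAA, which leads the longer form of the sites of Zfp143, was found in 15 Zfp windows (9.32%), beside 2.81% of all windows. It was in 0 of 14 windows of genes that rose, 3 of 23 windows of genes that fell and 11 of 116 windows of genes that were not called. The remaining match was at Zfp180, which was not tested. The genes that fell with it were Zfp1, Zfp229 and Zfp277, and in the sequence of Zfp229 it stands on the opposite strand as TTGTAGT. The direct repeat of AGGTCA with a spacer of 5 bases, a form bound by retinoic acid receptors, was in 0 Zfp windows and 0.00913% of all windows. The 3 motifs do not overlap each other in the sequences printed. The Zfp windows had a median of 4.8 CpG per 100 bases, beside 2.4 for all windows. A match describes these letters only, and no factor binding was measured here.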

How the data were processed

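Total RNA of 6 samples, with 2 technical arrays each, was amplified and labelled with Cy3, per the labels' protocols. The deposited scanner tables hold, per the file headers, linear net mean intensity values per spot, from which the authors' software had already taken the local background. The tables hold 41174 probes and no detection or saturation flag, and 0 Zfp genes exceeded 40000. Of the marker genes and Trim28 partners, Trim28, Cyp26a1, Krt18 and Dppa5a did. R 2.15.0 and limma are named in the submitters' processing notes. The authors' processed intensity table served as an alternative and had correlations of 0.999474 to 0.999531 with the quantile-normalized log2 values.

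Intensities were quantile-normalized, 50 was added and log2 taken. The background limit of an array was the 95th percentile of its 27 negative control spots (limits 8.50 to 51.6). Technical arrays (r = 0.9921 to 0.9986) were averaged, and 3 against 3 samples were fitted with limma 3.58.1 in R 4.3.3 (lmFit, eBayes, two-sided, Benjamini-Hochberg over 15328 genes). The planned protein domain counts were not made. On simulated data with 200 changed genes the fit recovered 1.4% of log2 changes of 0.5 and 40.2% of those of 1. It recovered 87% of changes of 2 and 98.6% of those of 4, with 3.36% false among the calls. Many more genes were called in the measured data, so these shares need not hold there. Of the 157 genes, 148 matched RefSeq (GRCm38.p6) by accession and 8 by symbol, and 6 have another current symbol. Plots were made in matplotlib 3.10.9 under Python 3.11.15.

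Named were the 12 largest rises and falls called without overlap, tested members of the role lists, genes whose probes disagree, called neighbours, up to 5 called Trim28 partners each way with Trim28 and Setdb1, and Pou5f1 and Cyp26a1. Other genes were named after their values were seen. The members and lists were chosen with earlier results of these data known, and the motifs and the pattern of undifferentiated replicate 2 were chosen from the data. Alternatives were other scalings, added constants, filters, probes, names, array choices, a replicate block, a variance trend and each sample left out in turn. For the 64 Zfp genes with 1 probe, the alternative on second brightest probes reused that probe, so it could not show a difference between probes. A stricter threshold, an adjusted p under 0.01, was applied besides and is not counted among the 22 alternatives. Replicate numbers were not used to pair the samples in the main fit.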

Additional observations from a re-analysis of the deposited data

How the results depend on the processing

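Of the 38 called Zfp genes, 18 (10 higher, 8 lower) were called under each of the 22 alternatives that tested them, at an adjusted p under 0.05. Some of these have 1 probe, which the alternative on second brightest probes reused. With any 1 sample left out 20 were called, and 0 changed sign. With each sample left out in turn, higher calls ranged from 11 to 21 and lower calls from 9 to 30, the median difference of the Zfp genes from -0.148 to -0.042, and Trim28 partners from 1 to 5 higher and 2 to 5 lower. In these fits 13.4% to 34.2% of Zfp genes were called, beside 21.1% to 34.3% of all genes. With all 12 arrays and the sample as a random block 24 Zfp genes were higher and 30 lower (36.2% called, beside 35.2% of all genes). At an adjusted p under 0.01 there were 11 and 8 (12.8% called, beside 18.9% of all genes). The replicate number was tried as a block and gave 20 higher and 20 lower, with 3 Trim28 partners higher. Same-numbered samples correlated in their deviations at -0.06, 0.22 and 0.07, and differently numbered ones at -0.255 to 0.255. All arrays of replicate 3, in both groups, had median net intensities of 67.0 to 96.6, beside 37.4 to 57.8 on the others. Whether same-numbered samples share a batch was not tested. Trim28 partners were 1 higher and 9 lower under 75th percentile scaling, 1 higher under median scaling, 3 lower with 1 or 10 added, without the filter or on technical array 1, 3 higher on second brightest probes, and 1 each at 0.01. Higher genes made up 58% of all calls, 48% under 75th percentile and 51.6% under median scaling. On the second brightest probe the sign turned, with a call on 1 of the probes, for Zfp451 (0.77), Zfp84 (-0.84) and Cbx5 (-0.13). The cause of these changes was not tested, apart from the fewer samples or the stricter threshold. Signals near the background limit leave the sizes for Zfp202, Zfp467, Zfp9 and Zfp459 approximate.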
